A study of Mus musculus with 6 samples.

Results

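The 39 antioxidant and glutathione genes examined here were picked by symbol from a list of enzymes that remove superoxide and peroxides, make, recycle or use glutathione, or set the level of these enzymes. All 39 were found among the 47937 genes of the expression table, and 38 had a mean normalized count of at least 10 and were tested. Gpx3, a secreted glutathione peroxidase, had a mean just under that level, was not tested with all 6 libraries and is given as values. The RNA came from haematopoietic stem cells (HSCs), the self-renewing source of all blood lineages, of wild-type C57BL/6 mice that were 8 weeks old and stated to be male. Marrow was taken from pooled femora and tibiae, depleted of cells with lineage markers, and sorted on a gate of Kit and Sca-1 positive, CD34, Flt3 and CD48 negative, Slam1 positive cells. The gated cells were split on the surface receptor CD93 into positive cells (CD93pos) and negative cells (CD93neg), and 3 libraries were made of each. Both fractions are labelled with the same genotype and had no treatment. The labels do not tie libraries to animals, so p-values measure the spread between these libraries.

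Superoxide dismutases turn superoxide into hydrogen peroxide, and catalase, the glutathione peroxidases and the peroxiredoxins reduce the peroxide. The peroxidases draw electrons from glutathione, which GCLC with GCLM and then GSS build from amino acids and GSR recycles with NADPH, and most peroxiredoxins draw them from thioredoxin, which thioredoxin reductases recycle with NADPH. The transcription factor NRF2 (gene Nfe2l2), held down by KEAP1, switches on many of these genes through antioxidant response elements in their promoters. HSCs are known for low levels of reactive oxygen species, and high levels are known to drive them out of quiescence.

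Depth differed between the libraries. Reads assigned to genes ranged from 5794528 to 9509304 in CD93pos and from 2832653 to 4614396 in CD93neg, and 1 read was worth a normalized count of 0.457 to 0.792 in CD93pos and 0.951 to 1.82 in CD93neg. The library labelled CD93neg replicate 1 had no read for 71.0% of the 11805 tested genes, and for 26 of the 39 antioxidant genes. Some libraries stood apart from their labels. The normalized counts of Cd93 itself were 414, 793 and 338 for CD93pos and 0, 399 and 59.4 for CD93neg, so that CD93neg replicate 2 lay above CD93pos replicate 3. Xist had 2419 and 1143 reads in CD93neg replicates 2 and 3, which had no read of the Y-linked Ddx3y, Eif2s3y, Kdm5d or Uty, although the mice were stated to be male. Every CD93pos library read each of these Y-linked genes, with 855, 328 and 243 reads of Ddx3y, and Xist had 0, 0 and 12. CD93neg replicate 1 had 1 read of Eif2s3y and none of the others. Apart from that library, the sex read from these genes went with the CD93 fraction, and its part in the differences below was not tested. Without CD93neg replicates 2 and 3 only the sparse CD93neg replicate 1 is left in that group, so each of the 3 was left out in turn. Of 11 HSC markers, all 11 were read in every library other than CD93neg replicate 1, where 4 were, and their sum did not overlap, at 2317, 2472 and 1844 CPM (reads scaled to the same total in each library) in CD93pos and 3187, 4070 and 2605 in CD93neg.

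The summed level of the antioxidant genes overlapped between the fractions. The share of single genes that lay higher in CD93pos without overlap was near that of all genes. Summed over the 39 genes, the level in CPM was 6325, 6170 and 6967 in CD93pos and 8083, 5907 and 6589 in CD93neg, or 6487 ± 423 and 6860 ± 1113 (SD, n = 3 each). Gclc and Gss, which encode enzymes of glutathione synthesis, were read in every CD93pos library and had between them 1 read in the 3 CD93neg libraries. Txnrd1, Prdx3, Prdx1, Gpx4, Gpx7 and Nqo1 were also above all CD93neg libraries in every CD93pos library, and Prdx5 was below. The 8 that were higher made up 21.1% of the 38 tested genes, beside 18.3% of all tested genes. A share of 1.92% of all tested genes lay lower in the same way. For the abundant Gpx1, Prdx6 and Txn1 the groups overlapped.

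By limma on log2(normalized count + 1), 0 of the 38 genes passed an adjusted p under 0.05, as did 0 of all 11805 genes (0.0%). At an unadjusted p under 0.05, 4 of the 38 passed (Gss, Gclc, Nqo1 and Gpx7), all higher in CD93pos, against 11.8% of all tested genes in that direction. edgeR on the recovered reads also called 0, and DESeq2 called 2, Gclc and Gss, both higher in CD93pos, beside 5.58% of all genes in that direction. Of the 38 genes, 28 had a positive log2 fold change (73.7%, against 79.9% of all tested genes), with a median of 2.84 against 2.36 over all. Setting Gclc and Srxn1, which no CD93neg library read, at their lower bounds left this median at 2.84. Without CD93neg replicate 1 the median over the genes was 0.29, against 0.44 over all. With quantile normalization, which moved the median of all genes by -2.34 to 0.02, the median over the 38 genes was 0.88. All log2 fold changes above 2 among the 38 belonged to genes with no read in CD93neg replicate 1, so the values per library are given first below. In RNA from sorted pools, fewer cells that express a gene and less RNA per cell cannot be told apart.

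In 8 of the 38 genes every CD93pos library lay above every CD93neg library, a share of 21.1% beside 18.3% of all tested genes, and in 1 gene every CD93pos library lay below every CD93neg library, beside 1.92%. The first share is near the background. Without CD93neg replicate 1, 9 genes were above (Cat joined) and 5 were below (Gpx1, Prdx5, Gstm1, Mgst1 and Mgst3), beside 21.8% and 13.8% of all tested genes. The 12 genes read in all 6 libraries were Sod1, Sod2, Cat, Gpx1, Gpx4, Prdx1, Prdx2, Prdx5, Prdx6, Txn1, Txnip and Oxr1, and 22.9% of all tested genes were read so widely. Of these 12, 3 had a positive log2 fold change and 9 a negative one, with a median of -0.28, while 54.5% of all genes read in 6 libraries were positive, with a median of 0.13. Without CD93neg replicate 1, 6 of the 12 were positive, with a median of 0.05. In that fit 60.2% of all tested genes were positive, with a median of 0.44.

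**Figure D1:**
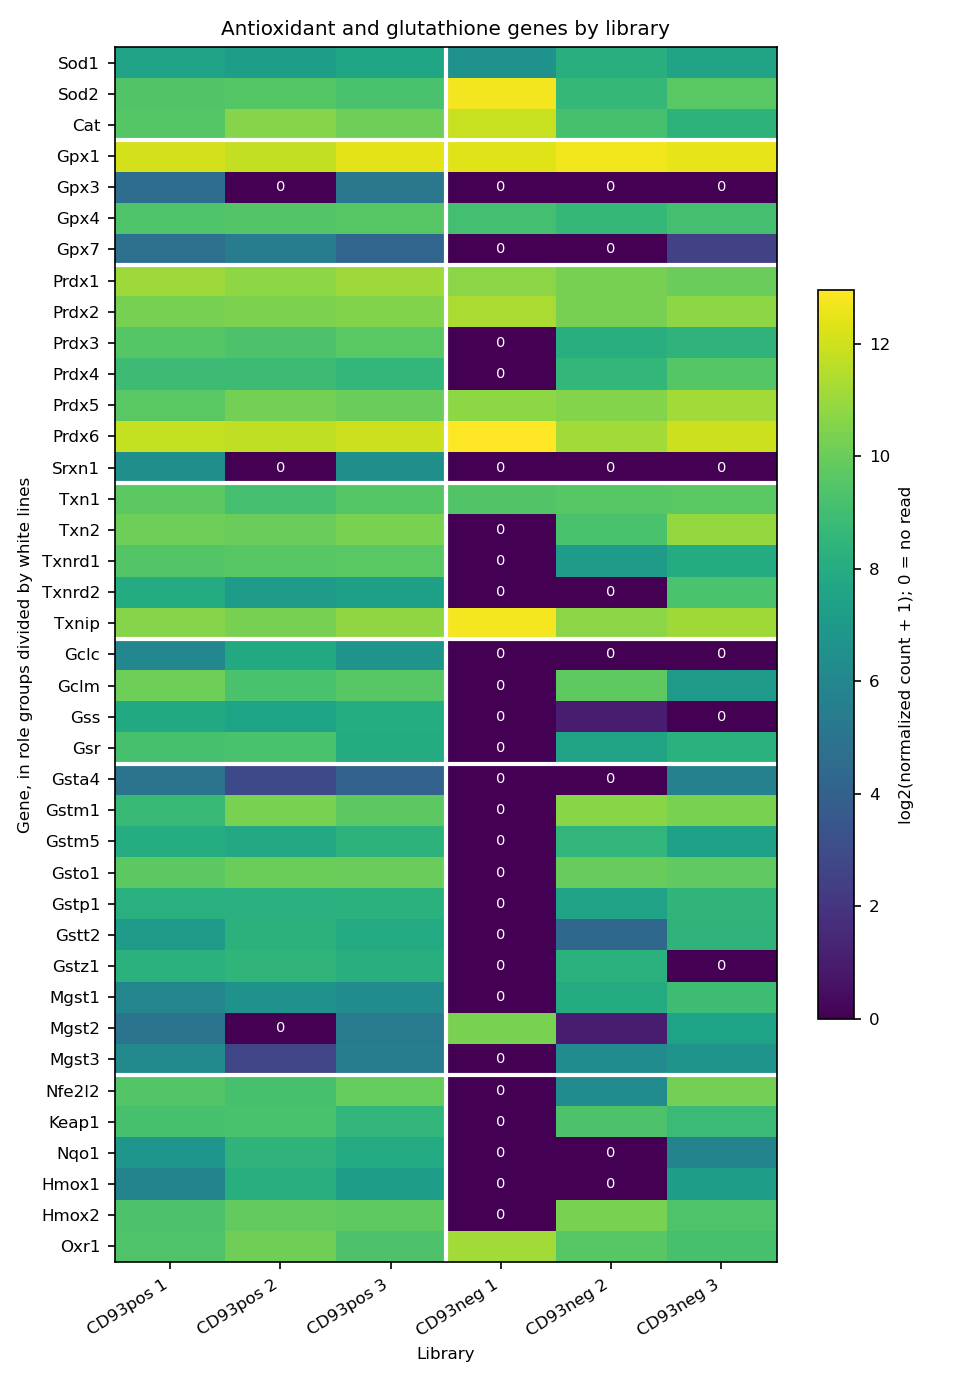
Heat map of log2(normalized count + 1) for the 39 genes (rows, in role groups divided by white lines) in the 6 libraries (columns), with 0 printed where a library had no read. CD93neg replicate 1 is unread for 26 genes, while Gclc is unread in all 3 CD93neg libraries and Gpx1 and Prdx6 are bright in all 6.

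The control genes of the NRF2 system did not separate the fractions, while Nqo1, a quinone reductase and standard NRF2 target, was mostly a CD93pos transcript. Normalized counts of Nfe2l2, which encodes NRF2, were 708, 582 and 962 across CD93pos replicates 1, 2 and 3, against 0, 75.2 and 1222 across CD93neg replicates 1, 2 and 3. CD93neg replicate 3 was the highest of the 6 and CD93neg replicate 1 had no read. Keap1, the gene of its inhibitor, had 577, 612 and 365 in CD93pos against 0, 638 and 453 in CD93neg. Both genes overlapped between groups, with limma adjusted p of 0.566 and 0.625. Nqo1 (ENSMUSG00000003849.8, GRCm38 chr8:107388225-107403206, minus strand) had 109.7, 344 and 238 across CD93pos replicates 1, 2 and 3, against 0, 0 and 56.3 across CD93neg replicates 1, 2 and 3, so all 3 CD93pos libraries lay above the 1 CD93neg library that read it. Its mean was 230.4 ± 117 for CD93pos and 18.8 ± 32.5 for CD93neg (SD, n = 3 each). The fit put its log2 fold change at 5.76 (SE 1.99, limma adjusted p = 0.254). Leaving out CD93neg replicate 3 left no CD93neg read of Nqo1, which largely fixed the result of that fit. There the fitted difference was 7.71 on the log2 scale, and the limma adjusted p was 0.00762. That fit called 16.2% of all genes higher. Without CD93neg replicate 1 the limma adjusted p of Nqo1 was 0.295.

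The haem oxygenases break down haem to biliverdin, iron and carbon monoxide. Hmox1, the inducible one, had 57.1, 278 and 155 in CD93pos against 0, 0 and 148 in CD93neg. CD93neg replicate 3 was within the range of the CD93pos libraries, and the other CD93neg libraries had no read. Its log2 fold change came to 4.68 (SE 2.24, limma adjusted p = 0.448). Without CD93neg replicate 3, which left no CD93neg read of Hmox1, its limma adjusted p was 0.00888, in a fit that called 16.2% of all genes higher. Without CD93neg replicate 1 it was 0.462. Hmox2, the constitutive one and the highest of this group per exon length by its mean over the 6 libraries, had 654, 933 and 858 in CD93pos against 0, 1297 and 679.9 in CD93neg, with overlap. Its log2 fold change of 3.07 became -0.22 without CD93neg replicate 1. Oxr1, an oxidation resistance gene, was read in all libraries, with a mean of 806 ± 271 for CD93pos and 1205 ± 920.1 for CD93neg (SD, n = 3 each) and overlap.

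Promoters are shown because NRF2 binds a short element in them, whose core is TGACNNNGC. Those printed were picked from genes whose groups did not overlap (Prdx1, Txnrd1 and Gss) or from standard NRF2 targets (Gclm and Srxn1). All but Gss were picked with a match. Windows of 300 bases (250 before to 50 after the start of transcription) came from RefSeq on GRCm38.p6, and 32 of the 39 genes had one. Gclc had none. Both strands were searched. The core was found for 8 of the 32 genes (25.0%), namely Gclm, Gstm5, Mgst1, Nfe2l2, Prdx1, Sod1, Srxn1 and Txnrd1, and for 14.0% of all 27025 genes with a window. Counted by window, 8 of 42 held it (19.0%), against 12.4% of all windows. Among genes whose groups did not overlap, the windows of Gss, Nqo1, Prdx3, Prdx5, Gpx4 and Gpx7 held no match. This says only that these letters are not in them. A match is a description of the sequence and not a measured binding site.

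The following windows are written 5′ to 3′ on the strand of the gene in lower case, with the match in capitals. In these 4 genes the match reads TGACNNNGC on the opposite strand, and so GCNNNGTCA as printed. It begins 133 bases before the start in Prdx1, 134 before it in Gclm, 92 before it in the middle one of the Txnrd1 windows, and 28 after it in Srxn1. Gss, with no match, is given for comparison.
Prdx1 (GRCm38.p6 chr4:116685349-116685648, plus strand): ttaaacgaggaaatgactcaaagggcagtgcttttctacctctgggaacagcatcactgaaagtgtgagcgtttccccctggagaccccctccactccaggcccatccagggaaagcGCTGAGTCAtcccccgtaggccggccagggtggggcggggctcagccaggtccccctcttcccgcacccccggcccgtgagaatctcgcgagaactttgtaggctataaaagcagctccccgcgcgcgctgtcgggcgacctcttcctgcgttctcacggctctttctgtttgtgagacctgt
Gclm (GRCm38.p6 chr3:122245307-122245606, plus strand): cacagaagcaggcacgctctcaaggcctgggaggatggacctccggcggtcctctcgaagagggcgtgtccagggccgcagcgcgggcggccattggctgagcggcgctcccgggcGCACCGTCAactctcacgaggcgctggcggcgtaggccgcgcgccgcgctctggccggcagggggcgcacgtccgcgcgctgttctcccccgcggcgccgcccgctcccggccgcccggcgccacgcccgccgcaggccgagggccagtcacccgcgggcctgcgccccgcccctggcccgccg
Txnrd1 (GRCm38.p6 chr10:82858956-82859255, plus strand): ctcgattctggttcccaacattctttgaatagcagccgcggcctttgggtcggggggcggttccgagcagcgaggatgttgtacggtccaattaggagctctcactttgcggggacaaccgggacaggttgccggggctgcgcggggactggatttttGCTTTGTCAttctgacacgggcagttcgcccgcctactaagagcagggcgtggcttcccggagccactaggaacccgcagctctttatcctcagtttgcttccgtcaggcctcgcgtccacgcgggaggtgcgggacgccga
Srxn1 (GRCm38.p6 chr2:152105274-152105573, plus strand): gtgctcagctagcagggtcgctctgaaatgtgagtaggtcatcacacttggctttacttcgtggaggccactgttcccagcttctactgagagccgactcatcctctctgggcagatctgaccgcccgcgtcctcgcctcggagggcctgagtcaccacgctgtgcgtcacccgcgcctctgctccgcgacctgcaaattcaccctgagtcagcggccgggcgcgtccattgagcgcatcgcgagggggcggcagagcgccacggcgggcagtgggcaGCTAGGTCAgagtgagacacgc
Gss (GRCm38.p6 chr2:155592761-155593060, minus strand): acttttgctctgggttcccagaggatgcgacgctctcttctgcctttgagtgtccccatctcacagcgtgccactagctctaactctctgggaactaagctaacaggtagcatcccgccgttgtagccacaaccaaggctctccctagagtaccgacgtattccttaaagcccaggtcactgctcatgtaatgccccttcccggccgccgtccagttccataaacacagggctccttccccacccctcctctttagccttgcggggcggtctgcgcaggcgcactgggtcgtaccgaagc
The printed matches differ from each other in their 3 free bases. Prdx1 has GCTGAGTCA, Gclm has GCACCGTCA, Txnrd1 has GCTTTGTCA and Srxn1 has GCTAGGTCA.

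Glutathione synthesis and recycling was the only role group whose summed reads did not overlap between the fractions. Its 4 genes summed to 454, 354 and 312 CPM in CD93pos and 0, 235 and 92.9 in CD93neg, or 373 ± 72.6 and 109 ± 118 (SD, n = 3 each), and no CD93neg library reached the lowest CD93pos library. All 4 had a positive log2 fold change, with a median of 5.47, or 5.31 with Gclc at its lower bound, and 4.08 without CD93neg replicate 1. By limma 0 of the 4 passed.

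Gclc (ENSMUSG00000032350.8, GRCm38 chr9:77754535-77794485, plus strand) encodes the catalytic subunit of glutamate-cysteine ligase, the rate-limiting enzyme of glutathione synthesis. Its normalized counts were 65.8, 232 and 102 across CD93pos replicates 1, 2 and 3, against 0, 0 and 0 across CD93neg replicates 1, 2 and 3, from 144, 293 and 166 reads of the CD93pos libraries and 0 of every CD93neg library. All CD93pos libraries read the gene and no CD93neg library did, as in 4.6% of all tested genes. Its summed CPM was at least 93.5-fold higher in CD93pos, with the 3 CD93neg libraries set together at 3 reads, the limit that a count of 0 allows, and at least 52.2-fold higher when CD93neg replicate 2 was left out. On the log2 scale the fitted difference was 6.87 (SE 1.30, limma adjusted p = 0.0558). The fitted fold change depends on the pseudocount. In the authors' deposited table, made with DESeq2, the log2 fold change of Gclc was 9.02 and the adjusted p 0.0054, a call shared by 5.58% of genes in that direction.

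Gss (ENSMUSG00000027610.17, GRCm38 chr2:155563181-155592810, minus strand) encodes glutathione synthetase, the second enzyme of the pathway. Its normalized counts were 229, 179 and 262 across CD93pos replicates 1, 2 and 3, against 0, 0.951 and 0 across CD93neg replicates 1, 2 and 3, from 501, 226 and 426 reads of the CD93pos libraries and 0, 1 and 0 of the CD93neg libraries. Every CD93pos library lay far above the 1 read of CD93neg replicate 2. The ratio of summed CPM was 537, with an exact 95% counting interval of 96.1 to 21211, and the difference was at least 99.9-fold without CD93neg replicate 2. The fitted log2 fold change was 7.47 (SE 1.31, limma adjusted p = 0.0558). In the authors' deposited table its log2 fold change was 8.82 and the adjusted p 0.00371. Reads of Acss2, which overlaps Gss on the opposite strand, numbered 1119, 457 and 990 for CD93pos and 2654, 563 and 740 for CD93neg, so it was read where Gss was not.

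The calls of both genes moved with the libraries used. By DESeq2 the adjusted p of Gclc was 0.0456, 0.0697 and 0.0591 when CD93pos replicates 1, 2 and 3 were left out in turn, and 2.45e-05, 0.0134 and 0.00328 for CD93neg replicates 1, 2 and 3. That of Gss was 0.0425, 0.0307 and 0.0535, and 1.33e-06, 0.00699 and 0.00308. These fits called 1.14%, 1.24%, 0.938%, 8.48%, 8.07% and 17.9% of all genes higher, in the same order. By limma both passed without CD93pos replicate 2 (adjusted p = 0.0269 for Gclc and 0.0288 for Gss) and without CD93neg replicate 3 (0.00824 and 0.00764), and with a pseudocount of 0.5 (0.0495 each), where 1.73% of all genes were called higher. Both had log2 fold changes above 0 in every alternative that was run. With almost no CD93neg reads of either gene, these alternatives could hardly turn that sign.

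Gclm, the modifier subunit that lowers the demand of GCLC for its substrate, overlapped between the fractions. Its normalized counts were 1104, 606 and 759 across CD93pos replicates 1, 2 and 3, against 0, 840.1 and 127 across CD93neg replicates 1, 2 and 3. CD93neg replicate 2 lay within the CD93pos range, and that library had 0 reads of Gclc. The fit put its log2 fold change at 4.07 (SE 2.63, limma adjusted p = 0.551). Gsr, glutathione reductase and the highest of the 4 per exon length by its mean over the 6 libraries, had 573, 607 and 252 in CD93pos against 0, 189 and 309 in CD93neg. CD93neg replicate 3 was above CD93pos replicate 3, and the limma adjusted p was 0.597. The plot of selected genes shows the 2 genes with empty CD93neg libraries beside these 2.

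**Figure D2:**
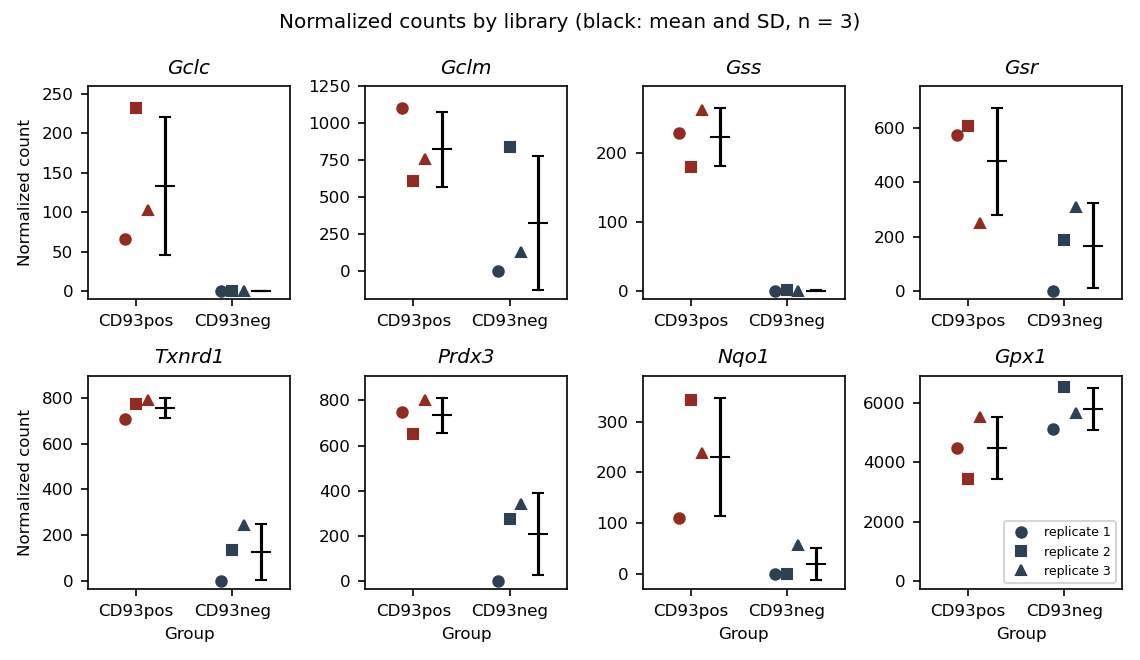
Normalized counts of 8 genes by library (points, with a shape for each replicate number) in CD93pos and CD93neg, with the mean and SD of each group (black, n = 3) and an axis of its own for each gene. Gclc and Gss sit at or near 0 in all CD93neg libraries, Txnrd1, Prdx3 and Nqo1 do not overlap, and Gclm, Gsr and Gpx1 do.

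Among the 39 genes Gpx1 had the highest level per exon length over the 6 libraries, and Gpx4 and Gpx7 were the glutathione peroxidases without overlap. Gpx1 (ENSMUSG00000063856.7, GRCm38 chr9:108338903-108340343, plus strand), the cytosolic glutathione peroxidase that uses glutathione to reduce hydrogen peroxide, had a mean of 3556 normalized counts per kb of exon. In every library it stood between the 99.7th and 99.9th percentile of all tested genes per kb. Its normalized counts were 4465, 3430.3 and 5517 across CD93pos replicates 1, 2 and 3, against 5128, 6535 and 5672 across CD93neg replicates 1, 2 and 3. The groups overlapped through CD93pos replicate 3, and its log2 fold change was -0.39 (SE 0.21, limma adjusted p = 0.47). Gpx4, which reduces lipid peroxides in membranes and holds back ferroptosis, had 664, 716 and 759 across CD93pos replicates 1, 2 and 3, against 539, 389 and 559.5 across CD93neg replicates 1, 2 and 3. All CD93pos libraries lay above all CD93neg libraries, with means of 713 ± 47.9 for CD93pos and 496 ± 93.1 for CD93neg (SD, n = 3 each), and its log2 fold change was 0.54 (SE 0.99, limma adjusted p = 0.776). Within each library the ratio of Gpx1 to Gpx4 per exon length was 8.05, 5.74 and 8.69 in CD93pos and 11.4, 20.1 and 12.1 in CD93neg, so every CD93neg library was above every CD93pos library. Gpx4 has processed copies of over 95% identity, so its reads are uncertain to that extent.

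Gpx7, a peroxidase of the endoplasmic reticulum, had 26.5, 42.0 and 17.8 in CD93pos against 0, 0 and 4.69 in CD93neg. The CD93neg reads were 0, 0 and 3, and every CD93pos library was higher. The ratio of summed CPM was 21.7, with an exact 95% counting interval of 7.28 to 107, and 12.1 without CD93neg replicate 2. Its log2 fold change came to 3.98 (SE 1.39, limma adjusted p = 0.262), and it was -0.67 with quantile normalization. Gpx3 had 24.7, 0 and 34.5 in CD93pos against 0, 0 and 0 in CD93neg, and CD93pos replicate 2 was unread like all CD93neg libraries. Without CD93pos replicate 2, Gpx3 passed the filter through its CD93pos reads alone. Limma then put it 4.92 higher in CD93pos on the log2 scale (adjusted p = 0.0269), in a fit that called 6.05% of genes higher. Leaving out the CD93pos library with no read largely fixed this result, so it is no support for a difference. Without CD93neg replicate 1 the adjusted p was 0.45.

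The sum of the peroxiredoxins overlapped between the fractions, while the shares of Prdx3 and Prdx5 did not. With sulfiredoxin they made up 2083 ± 159 CPM for CD93pos and 2148 ± 559 for CD93neg (SD, n = 3 each). Prdx1 and Prdx3 lay higher and Prdx5 lower in CD93pos, each with no overlap, and Prdx2, Prdx4 and Prdx6 overlapped. Prdx3 (ENSMUSG00000024997.7, GRCm38 chr19:60864051-60874556, minus strand), the mitochondrial peroxiredoxin, had 747, 649.8 and 804 across CD93pos replicates 1, 2 and 3, against 0, 276 and 342 across CD93neg replicates 1, 2 and 3. Even the higher 2 CD93neg libraries were below the lowest CD93pos library. On the log2 scale the fitted difference was 4.0 (SE 2.57, limma adjusted p = 0.549), and without CD93neg replicate 1 it was 1.25 with an SE of 0.35 (adjusted p = 0.166). Without that library DESeq2 called Prdx3, with an adjusted p of 0.0421, in a fit that called 8.48% of genes higher and 1.86% lower.

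Prdx5 (ENSMUSG00000024953.16, GRCm38 chr19:6906697-6910106, minus strand), found in mitochondria, peroxisomes and the cytosol, was lower in every CD93pos library than in any CD93neg library. Its normalized counts were 789.9, 1214 and 1024 across CD93pos replicates 1, 2 and 3, against 1739, 1482 and 2246 across CD93neg replicates 1, 2 and 3. The closest pair was CD93pos replicate 2 and CD93neg replicate 2. The means were 1009 ± 212 for CD93pos and 1822 ± 389 for CD93neg (SD, n = 3 each). The fitted log2 fold change was -0.85 (SE 0.55, limma adjusted p = 0.55). Prdx5 overlaps Trmt112 on the opposite strand, and the strand setting of the counting is not given. Reads of Trmt112 numbered 899, 519 and 850 for CD93pos and 0, 501 and 353 for CD93neg, so CD93neg replicate 1 read Prdx5 without any read of Trmt112.

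Prdx1, a cytosolic peroxiredoxin, had 2115, 1708 and 2105 across CD93pos replicates 1, 2 and 3, against 1665, 1268 and 1014 across CD93neg replicates 1, 2 and 3, again with no overlap. Its means were 1976 ± 232 for CD93pos and 1316 ± 328 for CD93neg (SD, n = 3 each). The fit put its log2 fold change at 0.61 (SE 0.47, limma adjusted p = 0.609). Prdx2, its close relative, had 1273, 1369 and 1462 in CD93pos against 2581, 1274 and 1707 in CD93neg and overlapped. Per exon length the ratio of Prdx1 to Prdx2 was 1.67, 1.25 and 1.44 in CD93pos and 0.646, 0.998 and 0.596 in CD93neg, above 1 in every CD93pos library and below 1 in every CD93neg library. Processed copies of Prdx1 and Prdx2 share over 95% of their sequence and had few reads.

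As shares of the summed peroxiredoxin level per exon length, the mitochondrial Prdx3 took 17.1, 14.9 and 17.0 in CD93pos and 0, 7.87 and 6.87 in CD93neg (percent, replicates 1, 2 and 3). Prdx5 took 12.5, 19.3 and 14.9 in CD93pos and 21.1, 29.2 and 31.2 in CD93neg. Neither share overlapped between the groups. For Prdx6, which was the highest of the family in every library other than CD93neg replicates 2 and 3, where Prdx5 was, and which is a peroxidase that acts on phospholipids, the share was 25.4, 24.0 and 25.9 in CD93pos and 42.8, 20.1 and 24.9 in CD93neg, with overlap. Its normalized counts were 3619, 3404 and 3980.2 in CD93pos against 7935, 2293 and 4035 in CD93neg, with the highest value in CD93neg replicate 1. Prdx4, of the endoplasmic reticulum, had 469, 467 and 382 in CD93pos against 0, 379.6 and 746 in CD93neg and overlapped.

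**Figure D3:**
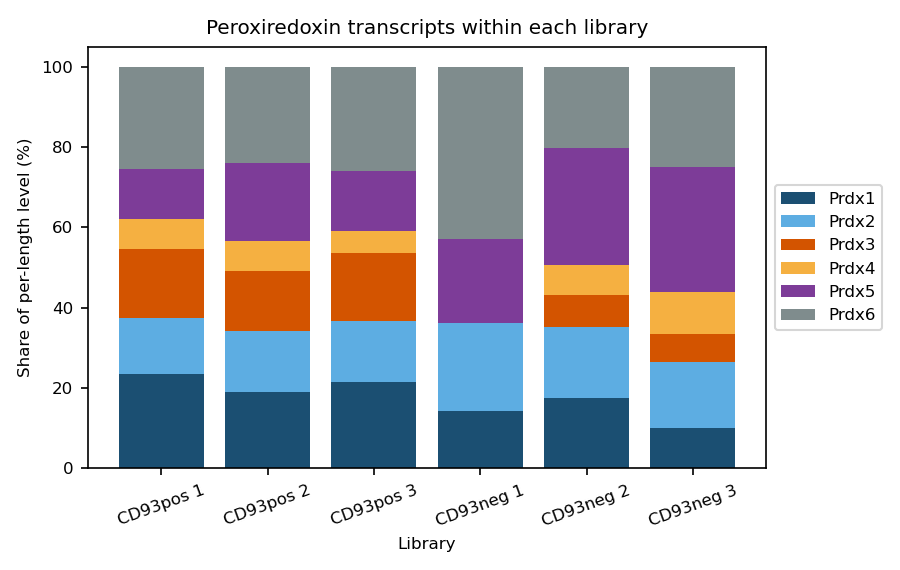
Share of the summed peroxiredoxin level per exon length (percent, y axis) taken by Prdx1 to Prdx6 (colours) in each of the 6 libraries (x axis). The Prdx3 part runs from 14.9% to 17.1% in CD93pos and from 0 to 7.87% in CD93neg, and the Prdx5 part is wider in every CD93neg library.

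Srxn1, sulfiredoxin, repairs peroxiredoxins whose active cysteine has been over-oxidised. It had 85.9, 0 and 88.0 in CD93pos against 0, 0 and 0 in CD93neg. CD93pos replicate 2 was unread, like all CD93neg libraries. Its summed CPM was at least 51.3-fold higher in CD93pos, and at least 28.7-fold higher when CD93neg replicate 2 was left out. Its log2 fold change came to 4.31 (SE 1.98, limma adjusted p = 0.433). Without CD93pos replicate 2, the CD93pos library with no read of it, limma gave an adjusted p of 0.0269, in a fit that called 6.05% of genes higher. That choice of library largely fixed the result. Without CD93neg replicate 1 the limma adjusted p was 0.428. In the authors' deposited table the adjusted p was 0.0604.

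In the thioredoxin system the cytosolic reductase Txnrd1 separated the fractions and its substrate Txn1 did not. Txnrd1 (ENSMUSG00000020250.9, GRCm38 chr10:82833951-82897712, plus strand) had 706, 773 and 788 across CD93pos replicates 1, 2 and 3, against 0, 136 and 245 across CD93neg replicates 1, 2 and 3. The lowest CD93pos library was well above the highest CD93neg library. The means were 756 ± 43.9 for CD93pos and 127 ± 123 for CD93neg (SD, n = 3 each). Their ratio was 5.94, or 3.96 against CD93neg replicates 2 and 3 alone. On the log2 scale the fitted difference was 4.55 (SE 2.48, limma adjusted p = 0.484), and without CD93neg replicate 1 it was 2.04 with an SE of 0.43 (adjusted p = 0.111). DESeq2 without that library called it, with an adjusted p of 0.00488, in a fit that called 8.48% of all genes higher.

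Txn1, cytosolic thioredoxin, had 816, 556 and 753 in CD93pos against 693, 756 and 785 in CD93neg, with overlap and a log2 fold change of -0.09 (limma adjusted p = 0.958). Per exon length the ratio of Txnrd1 to Txn1 was 0.128, 0.206 and 0.155 in CD93pos and 0, 0.0267 and 0.0464 in CD93neg. Every CD93pos library was above every CD93neg library, as for Txnrd1 itself. This ratio and those of Gpx1 to Gpx4 and Prdx1 to Prdx2 are among several taken. Ratios of Txnip to Txn1, Prdx6 to Prdx1, Cat to Gpx1, Sod2 to Sod1, Gsr to Gpx1, Hmox1 to Hmox2 and Keap1 to Nfe2l2 overlapped. Txnip, which binds and inhibits thioredoxin and limits glucose uptake, had the highest mean of this group per exon length over the 6 libraries, although Txn1 was higher in every library other than CD93neg replicate 1. It had 1526, 1244 and 1812 across CD93pos replicates 1, 2 and 3, against 7022, 1658 and 2239.7 across CD93neg replicates 1, 2 and 3. CD93neg replicate 1 was far above the rest and the groups overlapped. The fitted log2 fold change was -0.97 (SE 0.57, limma adjusted p = 0.513).

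The mitochondrial thioredoxin Txn2 and its reductase Txnrd2 overlapped between the fractions. Txn2 had 1104, 1006 and 1292 in CD93pos against 0, 598 and 1932 in CD93neg. Its lowest and its highest value were both in CD93neg. Txnrd2 had 246, 135 and 164 in CD93pos against 0, 0 and 633 in CD93neg, with its highest value in CD93neg replicate 3. Their limma adjusted p was 0.613 and 0.53. Without CD93neg replicate 3, which left no CD93neg read of Txnrd2, that of Txnrd2 was 0.00762, in a fit that called 16.2% of all genes higher. Without CD93neg replicate 1 that of Txnrd2 was 0.59.

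The 10 glutathione transferases, which attach glutathione to reactive compounds, overlapped between the fractions in each case. Their sum was 694 ± 118 CPM for CD93pos and 649.8 ± 343 for CD93neg (SD, n = 3 each). In 9 of the 10 the log2 fold change was positive, with a median of 2.67, and without CD93neg replicate 1, which read only Mgst2 among them, the median was 0.06. Gstm1, the highest per exon length by its mean over the 6 libraries, had 434, 1288 and 839 across CD93pos replicates 1, 2 and 3, against 0, 1633 and 1311 across CD93neg replicates 1, 2 and 3. Its log2 fold change of 2.59 became -0.91 without CD93neg replicate 1, with both other CD93neg libraries above all CD93pos libraries.

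Gstz1, which also acts in tyrosine breakdown, had 311, 359 and 289 in CD93pos against 0, 309 and 0 in CD93neg. CD93neg replicate 2 lay within the CD93pos range and the other CD93neg libraries had no read, and the limma adjusted p was 0.424. Gstp1 had 297, 299 and 310.1 in CD93pos against 0, 176 and 358 in CD93neg, and Gsto1 had 816, 1046 and 1012 in CD93pos against 0, 986 and 874 in CD93neg. Gstm5, Gsta4 and Gstt2 had log2 fold changes of 2.75, 2.08 and 3.52, with overlap.

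Of the microsomal members, Mgst1 had 60.3, 99.0 and 75.1 in CD93pos against 0, 252 and 479.8 in CD93neg. Without CD93neg replicate 1 its log2 fold change was -2.17 (limma adjusted p = 0.206), and DESeq2 called it lower in CD93pos, with an adjusted p of 0.0115. That DESeq2 fit called 1.86% of all genes lower. Mgst2 was the one transferase that CD93neg replicate 1 read, with 30.6, 0 and 40.0 in CD93pos against 1307, 0.951 and 181 in CD93neg. Mgst3 had 72.7, 5.55 and 44.3 in CD93pos against 0, 75.2 and 105 in CD93neg. Means were lower in CD93pos for Gstm1, Mgst1, Mgst2 and Mgst3 and higher for the other transferases. Sod1, Prdx2, Gstz1, Gsto1 and Hmox2 also overlap a gene on the opposite strand, and Sod1, Txn1, Gstm1 and Gstp1 have copies of over 95% identity, so reads of these genes are uncertain to that extent.

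The superoxide dismutases and catalase were read in all 6 libraries and overlapped in each case. Sod1, of the cytosol, had 177, 147 and 193 in CD93pos against 96.2, 279 and 189 in CD93neg, and its log2 fold change was -0.004 (limma adjusted p = 0.999). Sod2, of mitochondria, had 703, 755 and 594 across CD93pos replicates 1, 2 and 3, against 6848, 394 and 786 across CD93neg replicates 1, 2 and 3. CD93neg replicate 1 was the highest by far, and the log2 fold change of -0.92 (SE 1.12, adjusted p = 0.678) became 0.29 without it. Cat, catalase and the highest of the 3 per exon length, had 749, 1578 and 1112 across CD93pos replicates 1, 2 and 3, against 3751, 591 and 331 across CD93neg replicates 1, 2 and 3. Without CD93neg replicate 1, all CD93pos libraries lay above the remaining CD93neg libraries, and the log2 fold change was 1.31 (adjusted p = 0.246), against 0.28 with it.

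With each of the 6 libraries left out in turn, log2 fold changes ranged from 4.79 to 7.71 for Nqo1, 2.04 to 6.01 for Txnrd1, 1.25 to 5.46 for Prdx3, 0.44 to 0.79 for Prdx1, 0.37 to 0.63 for Gpx4 and -1.0 to -0.69 for Prdx5. The sign of each was bound to hold, since the groups of these genes did not overlap. The lowest value for Txnrd1 and Prdx3 came without CD93neg replicate 1.

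**Figure D4:**
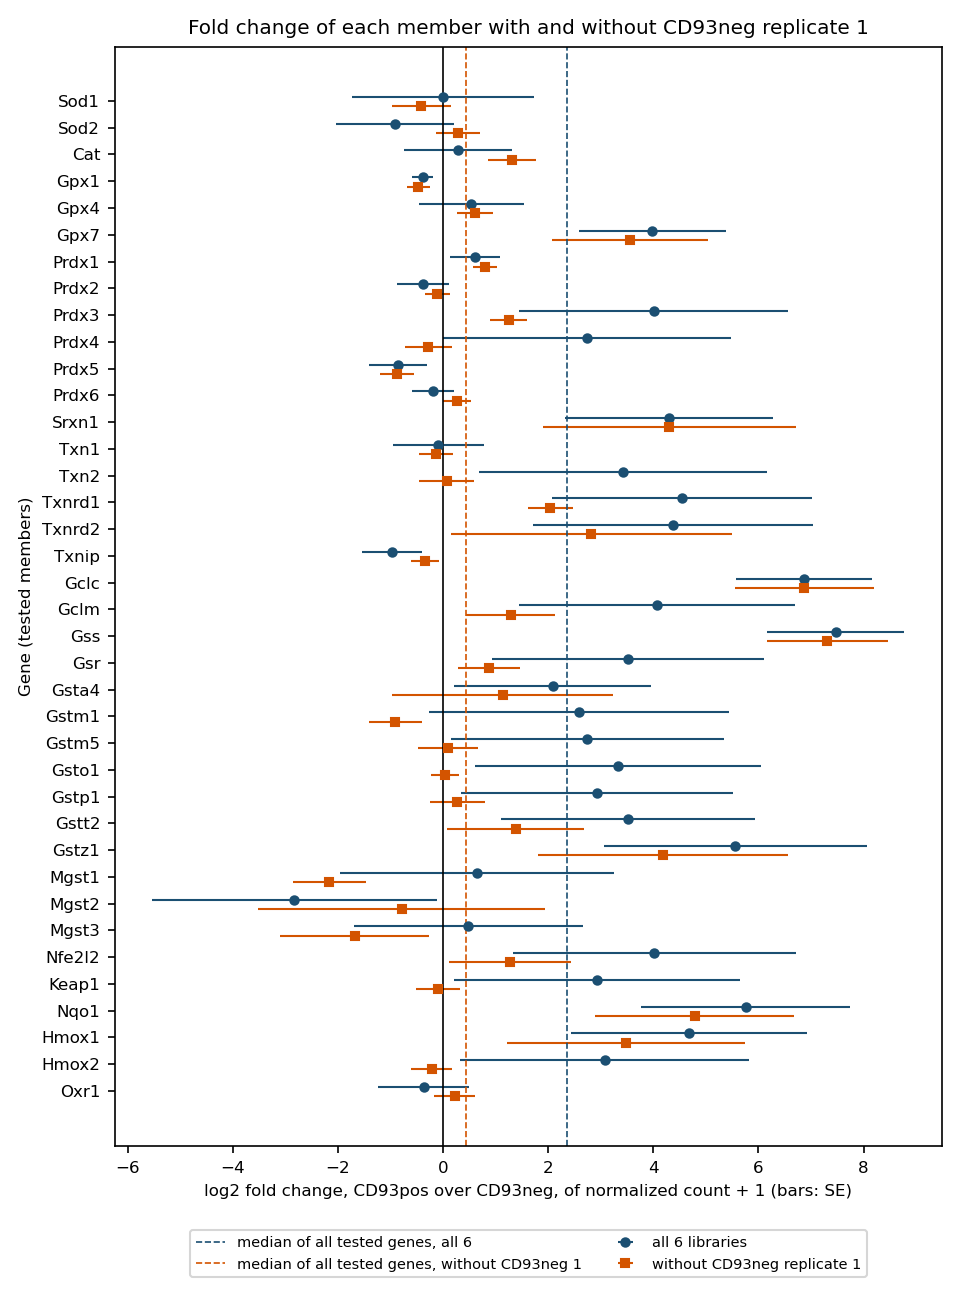
Log2 fold change of normalized count + 1, CD93pos over CD93neg (x axis, bars are the SE), of the 38 tested genes (y axis) with all 6 libraries (circles) and without CD93neg replicate 1 (squares). Gclc and Gss stay near 7 in both fits, most other large values shrink without that library, and dashed lines mark the medians of all tested genes, 2.36 and 0.44.

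A further 67 redox genes outside the list, covering NADPH supply, glutaredoxins, other transferases, NRF2 partners, FoxO factors, iron storage, NADPH oxidase and selenoprotein synthesis, were read for context, and 60 were tested. By limma and by edgeR 0 passed, and by DESeq2 2 did (Gstm2 and Nxn, both higher in CD93pos, beside 5.58% of all genes). At an unadjusted limma p under 0.05, Gstm2, Nxn and Foxo4 were higher, beside 11.8% of all genes, and Fth1 was lower, beside 0.381%. Of the 60, 50 had a positive log2 fold change, with a median of 2.15, beside 79.9% and 2.36 for all tested genes. Groups did not overlap for 7 with CD93pos higher (Glrx5, Gstm2, Nxn, Rbx1, Foxo4, Park7 and Blvra), which is 11.7% beside 18.3% of all genes, and for 3 with CD93pos lower (Msrb1, Fth1 and Pstk), beside 1.92%.

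Gstm2, a transferase of the mu class, had 37.5, 186 and 81.2 in CD93pos against 0, 0 and 0 in CD93neg, and Nxn, nucleoredoxin, had 17.8, 176 and 52.3 in CD93pos against 0, 0 and 0 in CD93neg. All CD93pos libraries read both genes and no CD93neg library did, so summed CPM was at least 69.6-fold and at least 53.7-fold higher in CD93pos. Without CD93neg replicate 2 the bounds were 38.9 and 29.97, and without CD93pos replicate 2 they were 44.7 and 25.9. Without CD93pos replicate 1 that of Nxn was 82.6. The limma adjusted p was 0.0581 and 0.0821, and the authors' deposited table called both, with adjusted p of 0.00781 and 0.0122. Fth1, the ferritin heavy chain that stores iron, had 3666, 4846 and 4656 across CD93pos replicates 1, 2 and 3, against 5831, 6182 and 6578 across CD93neg replicates 1, 2 and 3. Every CD93neg library was above every CD93pos library, and its log2 fold change was -0.51 (SE 0.16, limma adjusted p = 0.193).

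Glrx5, a mitochondrial glutaredoxin of iron-sulfur cluster assembly, had 499, 415 and 282 in CD93pos against 0, 34.2 and 116 in CD93neg. Park7 had 2066, 2043 and 2247 in CD93pos against 1180.0, 1592 and 1493 in CD93neg, and Rbx1, a subunit of the ligase that degrades NRF2, had 772, 867 and 723 in CD93pos against 245, 486 and 470.4 in CD93neg. For all 3 the groups did not overlap, with limma adjusted p of 0.453, 0.592 and 0.636. Blvra, which reduces biliverdin to bilirubin, had 502, 509 and 597 in CD93pos against 0, 412 and 397 in CD93neg, and the FoxO factor Foxo4 had 0.914, 51.5 and 35.1 in CD93pos against 0, 0 and 0 in CD93neg. The value of Foxo4 in CD93pos replicate 1 is under the limit that a count of 0 allows in each CD93neg library, so that library did not separate from CD93neg at this depth. Among those lower in CD93pos, Msrb1, a selenoprotein that repairs oxidised methionine, had 63.1, 87.2 and 54.8 in CD93pos against 517, 119 and 166 in CD93neg. Pstk, a kinase needed to make selenocysteine, had 174, 147 and 180.3 in CD93pos against 1387, 319 and 472 in CD93neg. In both, CD93neg replicate 1 was the highest library, and the limma adjusted p was 0.651 and 0.614. Genes of the NADPH oxidase, which makes superoxide in phagocytes, summed to 247, 166 and 322 CPM in CD93pos and 0, 1020.3 and 1019 in CD93neg. CD93neg replicates 2 and 3 stood above all other libraries.

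Markers of other blood cells differed between the same libraries. The 10 neutrophil markers summed to 17.9 to 288 CPM in CD93pos and to 0, 12570 and 8452 in CD93neg replicates 1, 2 and 3. Of them, 10, 9 and 0 were read in CD93neg replicates 2, 3 and 1, and Ly6g had no read in CD93pos. Elane of that list was read in every CD93pos library (189, 87 and 625 reads), and in CD93neg only in replicate 2 (2096 reads). The 8 B lineage markers summed to 63.1 to 75.6 CPM in CD93pos and to 0.353, 6619 and 14739 in CD93neg, with 2 to 3 and 1 to 7 of them read in a library and Cd79a, Ms4a1, Pax5 and Ebf1 at 0 in CD93pos. Vpreb1 of that list was read in every CD93pos library (7, 47 and 16 reads) and in no CD93neg library. The 7 mast cell and basophil markers summed to 635 to 1405 CPM in CD93pos and to 0.353 to 354 in CD93neg, with all 7 read in each CD93pos library and 1 to 2 in a CD93neg library, where Prss34, Ms4a2, Fcer1a, Hdc and Mcpt8 had no read. The 9 erythroid markers summed to 314 to 630.4 CPM in CD93pos and to 15.4 to 228 in CD93neg, with 8 read in each CD93pos library and 1 to 5 in a CD93neg library, where Klf1 and Alas2 had no read. The 5 megakaryocyte markers summed to 649 to 1340 CPM in CD93pos and to 298 to 409 in CD93neg. The 6 macrophage and monocyte markers summed to 24.3 to 89.2 and to 0 to 277, and their members went both ways. Adgre1, C1qa, C1qb and Vcam1 had no read in CD93neg, and Vcam1 had 80, 383 and 273 reads in CD93pos. Csf1r and Ly6c2 had 199 and 634 reads in CD93neg replicate 3. The 4 T cell markers summed to 0 to 9.93 and to 0 to 14.3. The part of these cells in the values of Gclc, Gss, Nqo1, Txnrd1, Prdx3 and Prdx5 was not tested.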

How the data were processed

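RNA of 3 CD93pos and 3 CD93neg HSC libraries was analysed, grouped by title, with paired 50 bp reads from a low-input kit per the labels' protocols. The submitters' processing notes name the builds GRCm38 and mm10 and the tools STAR, featureCounts, DESeq2 1.26 and Subread 1.5.0-p1, and the strand setting is not given in the sources used here. The authors deposited a signal table, in which gene counts were divided by each library's size factor. The authors also deposited a table of log2 fold changes with their standard errors, a Wald score and p-values before and after adjustment. Dividing by the step of 1 read gave whole reads for 100% of the values (tolerance 0.001).

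The 39 genes were joined by symbol and gene ID, and where Gstp1 and Txnrd2 had a second ID without reads, the ID found in GENCODE M21 was kept. The genes, lists and tests were chosen with earlier results of these data known. The 11805 genes whose normalized count averaged 10 or more were tested with limma 3.58.1 (lmFit, eBayes with a trend) in R 4.3.3 on log2(normalized count + 1), two-sided, with Benjamini-Hochberg adjustment over all tested genes and a threshold of 0.05. Fold changes on this scale understate the change of low genes, and are large where a library of 1 group has no read. edgeR 4.0.16 and DESeq2 1.42.0 on the recovered reads, other pseudocounts, filters and scalings, a replicate block, and each library left out were alternatives; DESeq2 with each library left out was added after the data were seen. The script was tested on simulated counts. Levels of different genes were compared only per kb of exon. Floors of 3 reads and counting intervals cover counting error only, since amplified reads are not independent molecules.

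Values in every library were due for genes past the threshold, genes whose groups did not overlap, the highest gene per exon length in each role group and the 8 smallest unadjusted p. Other genes given by library were chosen after their values were seen. Companion genes were named where groups did not overlap or among the 4 smallest p; the rest were chosen after their values were seen. Reads of overlapping genes on opposite strands cannot be separated.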

Additional observations from a re-analysis of the deposited data

How the results depend on the processing

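By limma, calls over all 11805 genes went from 0 to 206 with a pseudocount of 0.5, to 705 with DESeq2 and to 24 with the replicate block (15 higher, 9 lower), and ranged from 0 to 1873 with each library left out. Calls among the 38 antioxidant genes were 2 with a pseudocount of 0.5, beside 1.73% of all genes called higher. They were 2 with DESeq2, beside 5.58%, and 0 with the replicate block. Over all 39 genes they were 0 to 6 with each library left out. There were 4 without CD93pos replicate 2, beside 6.05% of all genes called higher. Gpx3 and Srxn1 were among them, and neither had a read in the library left out. There were 6 without CD93neg replicate 3, beside 16.2%. For Nqo1, Hmox1, Txnrd2 and Gpx7 among them, that library held all CD93neg reads. Calls among the companion genes were 2 with DESeq2, beside 5.58% of all genes called higher, and 0 to 8 with each library left out. Those last fits called 0.0% to 16.2% of all genes higher. DESeq2 with each library left out called 0 to 7 of the 38: 2, 1 and 0 for CD93pos replicates 1, 2 and 3, then 5, 3 and 7 for CD93neg replicates 1, 2 and 3. In the same order DESeq2 called 1.14%, 1.24%, 0.938%, 8.48%, 8.07% and 17.9% of all genes higher. Without CD93neg replicate 1 it called 1.86% lower. Its log2 fold changes for Gclc and Gss stayed positive, as they had to with so few CD93neg reads. Those that missed the threshold were 8.36 and 9.19 for Gclc (without CD93pos replicates 2 and 3) and 8.68 for Gss (without CD93pos replicate 3). Quality weights, no filter, a filter at 50, edgeR and the 3 other scalings left 0 calls. The replicate numbers are not stated to pair libraries: deviations of same-numbered libraries correlated at 0.037, 0.019 and 0.061, although each library correlated best with its own number. With the replicate block the adjusted p was 0.166 for Gclc and 0.143 for Gss.

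Log2 fold changes turned sign for 18 of the 38 genes in at least 1 of 17 alternatives, and for 20 in none of them (18 positive, Prdx5 and Txnip negative). DESeq2 gave -0.44 for Cat, -0.21 for Txnrd2, -0.20 for Gstm1, -1.64 for Mgst1 and -0.55 for Mgst3. edgeR gave 0.040 for Sod1, -0.010 for Cat, 0.15 for Txn1, -0.14 for Txnrd2, -0.13 for Gstm1, -1.57 for Mgst1 and -0.44 for Mgst3. Quality weights gave 0.16 for Sod2, 0.25 for Prdx6, 0.011 for Txn1, -0.94 for Gstm1, -2.01 for Mgst1, 0.35 for Mgst2, -0.52 for Mgst3 and -0.0012 for Hmox2. Quantile normalization gave 0.041 for Gpx1, -0.67 for Gpx7, 0.045 for Prdx2, 0.090 for Prdx6, -1.58 for Gsta4, -1.77 for Mgst1, -2.02 for Mgst3 and 0.081 for Oxr1. TMM scaling gave 0.23 for Sod1, 0.040 for Prdx6 and 0.14 for Txn1, CPM scaling 0.085 for Sod1 and 0.00085 for Txn1, and a pseudocount of 5 gave -0.065 for Mgst1 and -0.041 for Mgst3. With each library left out the range was -0.42 to 0.34 for Sod1, -1.77 to 0.29 for Sod2, -0.44 to 1.31 for Cat, -0.28 to 4.49 for Prdx4, -0.63 to 0.27 for Prdx6, -0.20 to 0.076 for Txn1, -0.91 to 4.42 for Gstm1, -2.17 to 2.29 for Mgst1, -1.68 to 1.68 for Mgst3, -0.091 to 4.57 for Keap1, -0.22 to 4.95 for Hmox2 and -0.76 to 0.22 for Oxr1. The cause of these changes was not tested. A count of 0 in a CD93neg library allows a normalized count of up to 2.85 to 5.45, so absence below that could not be seen.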
